A study of Mus musculus with 212 samples.

Results

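Sln and Myl2 are 2 of the 33 genes that 42 TaqMan assays measured by microfluidic quantitative PCR in single mouse heart-lineage cells, and both are followed here through all 7 tables of the series. They were taken by name, each has 1 assay, and the RefSeq gene table lists them under Gene IDs 66402 (Sln) and 17906 (Myl2). The tables held 200 cells and 12 control columns. Of these cells, 192 were distinct, because 8 cells appear in a pair of tables with the same value on every assay and were counted once. Expression is given as 25 minus the quantification cycle (Ct). Its unit is the PCR cycle, which is a doubling of template if amplification is complete, and 0 means that no signal was recorded (Ct listed at 25).

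Sln encodes sarcolipin, a small membrane protein of the sarcoplasmic reticulum that inhibits the calcium pump SERCA, and its heart expression is a mark of atrial muscle. Myl2 encodes the regulatory myosin light chain known as MLC-2v, the ventricular form that sits on the neck of the myosin heavy chain. In the developing mouse heart Myl2 marks the ventricular part of the heart tube from early on, while atrial muscle uses another light chain that has no assay on this panel. The beta myosin heavy chain Myh7 and the factor Hand1 are counted here with ventricular muscle and the T-box factor Tbx5 with atrial muscle, with the caution that Tbx5 is also made in the ventricle.

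The cell names give the sets. The reference table held 5 cells each named ES (embryonic stem), CPC (cardiac progenitor), CM (cardiomyocyte), SMC (smooth muscle), FB (fibroblast) and EDC, which the labels do not spell out. There were 6 cells each from days D5, D6, D7 and D8 of differentiation, 10 each from D23 and D29, 6 each from the embryonic stages E7.5, E8.5 and E9.5, and 72 from E10.5. The hearts gave 5 neonatal and 10 adult cells from each of the atrial and the ventricular chambers. No strain, genotype, treatment, sex, animal or culture is named, the adults' age is not stated, and how cells were chosen for sorting is not given in the sources used here. Each named set is therefore 1 sample, no test was made, and SDs and exact (Clopper-Pearson) 95% intervals describe cells only.

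Some labels and tables disagree. The D5-D8 cells carry the source label of an embryo and the E7.5-E10.5 cells that of embryoid bodies, so each set is called here by its table and cell names. The 6 cells named E10.5 in the E7.5-E10.5 table recur among the 72 of the E10.5 table, whose numbering is used here, and the reference cells CM-1 and CM-2 are D29-2 and D29-3. Negative controls gave no signal for either gene in any of the 6 tables that have one. The positive control read 15.22 cycles for Sln and 15.50 for Myl2, with the same values in the tables of D5-D8, E7.5-E10.5 and reference cells. In the D23-D29 table it read 15.93 and 16.95 cycles, so levels of that table are set beside others with a control that was 1.44 cycles higher for Myl2. In both heart tables the control values stand 1 row lower than elsewhere, and the cells do not follow that shift. Where a gene has more than 1 assay (9 genes), its assays differed on average by 1.30 cycles per atrial cell and 1.25 per ventricular cell with the names as given, against 6.65 and 5.21 cycles with names moved by 1 row. The given names were kept.

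**Figure D1:**
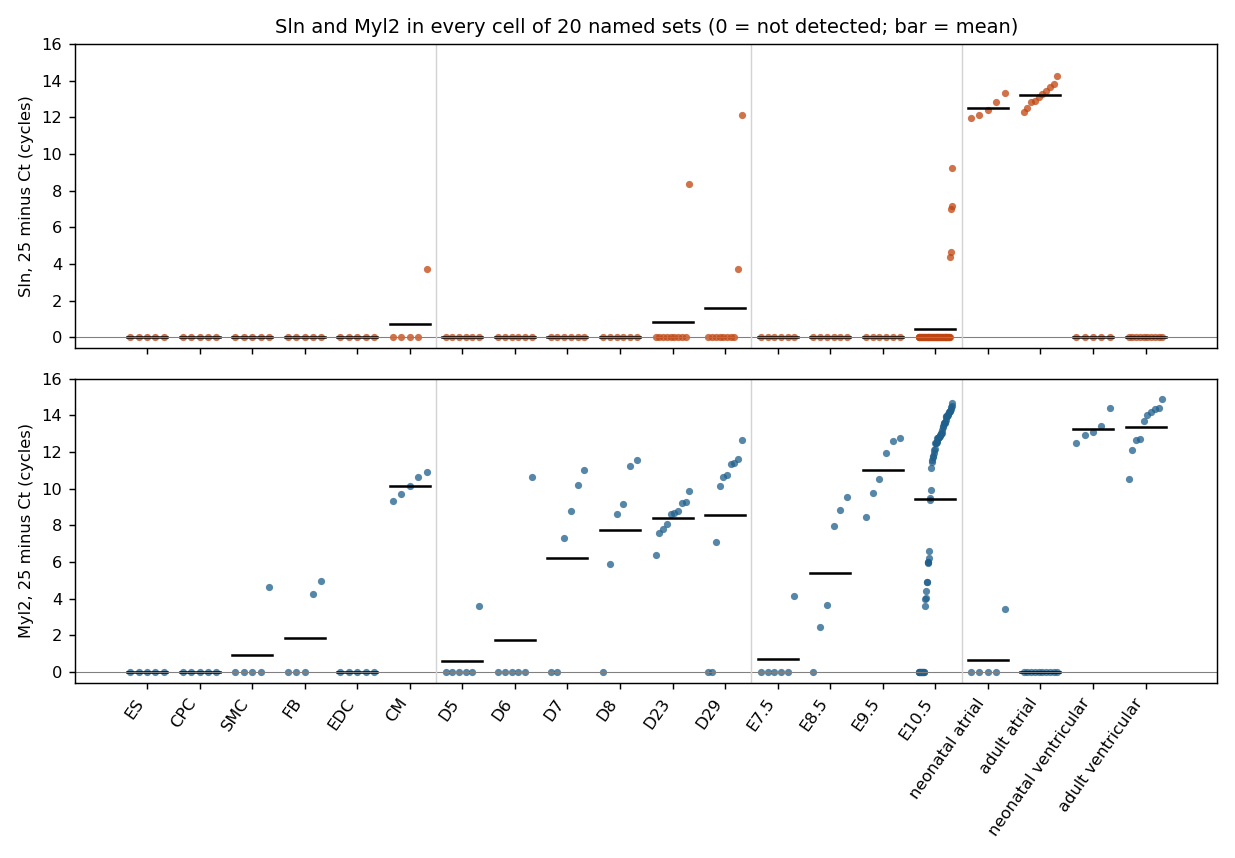
Every cell's level of Sln (upper panel) and Myl2 (lower panel) in 25 minus Ct (cycles), by named set; points are cells, bars are set means, and 0 is not detected. CM-1 and CM-2 are also D29-2 and D29-3. Sln stands above 11.9 cycles in all 15 atrial cells and is absent from the 15 ventricular cells, while Myl2 is high in ventricular cells and in most cells from D7 and from E8.5 on.

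In the heart each chamber expressed its own marker and almost nothing of the other. Sln was detected in all 15 atrial cells and in 0 of 15 ventricular cells, an interval of up to 21.8% for the ventricular share. Myl2 was detected in all 15 ventricular cells and in 1 of 15 atrial cells (6.67%, interval 0.169% to 31.9%).

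In neonatal atrial cells Sln read 11.94, 12.15, 12.38, 12.85 and 13.31 cycles. In adult atrial cells its lowest, median and highest values were 12.29, 13.18 and 14.26 cycles. The ranges of the 2 ages overlap. Mean Sln was 12.52 ± 0.55 cycles (SD, n = 5) in neonatal and 13.21 ± 0.61 (SD, n = 10) in adult cells, 0.68 cycles apart. That gap depends on the scale: it was 2.56 cycles with each cell centred on Actb and 0.16 with each cell centred on the median of its detected assays (called median-centred below).

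In neonatal ventricular cells Myl2 read 12.48, 12.95, 13.08, 13.41 and 14.42 cycles. In adult ventricular cells the lowest, median and highest values were 10.52, 13.88 and 14.89 cycles. Mean Myl2 was 13.27 ± 0.72 cycles (SD, n = 5) in neonatal and 13.36 ± 1.34 (SD, n = 10) in adult cells. The adult minus neonatal difference of 0.09 cycles turned to -0.22 centred on Actb and -1.18 median-centred, all within the adult SD. The only atrial cell with Myl2, Neo-atrial-3, had 3.42 cycles of it beside 12.38 of Sln, far under the lowest neonatal ventricular Myl2 value of 12.48.

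Because one side was undetected, chamber differences are lower limits in size. Sln was at least 12.52 cycles higher in neonatal and at least 13.21 higher in adult atrial cells. Myl2 was at least 13.36 cycles lower in adult atrial cells. In neonatal cells the Myl2 difference of the means was -12.58 cycles. All 4 differences kept their direction on both of those centred scales.

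No other assay separated the chambers so far. In adult cells 2 of 42 assays (4.76%) had an atrial mean higher by at least 1 cycle and 10 (23.8%) a lower one, and the median over all assays was -0.21 cycles. In neonatal cells 15 of 42 (35.7%) were higher and 5 (11.9%) lower, with a median of 0.62 cycles. The neonatal split turned with the scale, to 7 higher and 18 lower after centring on Actb and to 9 and 6 when median-centred. Actb itself was 1.93 cycles higher in the neonatal atrial cells, and its part in that split was not tested.

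Myh7, the beta myosin heavy chain, came next to Myl2. Its assay Myh7-2 averaged 7.51 ± 5.89 cycles (SD, n = 10) in adult ventricular cells and was undetected in the 10 adult atrial cells. The adult ventricular cells were of different kinds in this respect: 6 had Myh7-2 between 9.55 and 13.15 cycles, 1 had 3.51 and 3 had none. Myl2 did not follow that division. The 3 cells without Myh7-2 held 12.66, 12.72 and 14.89 cycles of Myl2, the last being the highest Myl2 value of any ventricular cell. In neonatal hearts Myh7-2 was present in all 5 ventricular cells (mean 7.84 ± 1.01, SD) and in 2 of 5 atrial cells (4.39 and 5.25 cycles).

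Tbx5, a T-box factor of the inflow part of the heart, was the only assay besides Sln whose atrial mean was at least 1 cycle higher in adult cells, and it was in neonatal cells too. It averaged 8.14 ± 0.68 cycles (SD, n = 5) in neonatal atrial and 4.40 ± 0.93 in neonatal ventricular cells, with no overlap between 7.09 to 8.97 and 3.17 to 5.48 cycles. In adults the means were 8.32 ± 1.22 and 6.35 ± 1.13 cycles (SD, n = 10 each), and the ranges 6.29 to 10.55 and 4.47 to 8.00 overlap. Gata4-1, an assay of the GATA factor Gata4, was 3.08 cycles lower in adult atrial cells, and Hand2 2.75 cycles lower. Gata4-2, the other assay of Gata4, differed by under 1 cycle between the adult chambers. The ventricular list of Hand1, Myh7-1, Myh7-2 and Myl2 had 3 of its 4 assays lower in adult and 4 of 4 in neonatal atrial cells. Hand1 was detected in 0 of the 10 adult cells of either chamber and in 1 neonatal ventricular cell (5.95 cycles), so its neonatal count rests on that cell.

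**Figure D2:**
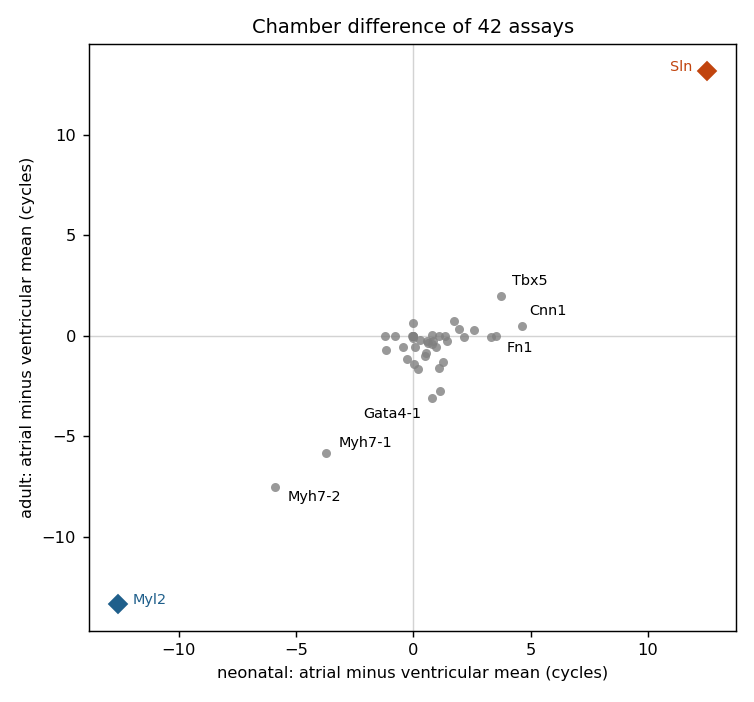
Atrial minus ventricular mean of each of the 42 assays in cycles, in neonatal cells (x axis) and adult cells (y axis); each point is an assay. Sln (12.52 neonatal and 13.21 adult) and Myl2 (-12.58 and -13.36) stand at the 2 ends, followed by both Myh7 assays on the ventricular side.

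Over all 192 distinct cells, 23 detected Sln, 122 detected Myl2 and 52 neither. Both were detected in 5 cells, which is 21.7% of the Sln cells (interval 7.46% to 43.7%) and 4.10% of the Myl2 cells (1.34% to 9.31%). Of the 23 Sln cells 15 were atrial, and Myl2 was detected in 63.5% of all 192 cells. Outside the hearts 4 of 8 Sln cells also had Myl2, an interval of 15.7% to 84.3%. Of all cells there, 106 of 162 (65.4%) had Myl2, a share inside that interval. All 8 Sln cells were of the myocyte class defined below. In that class outside the hearts 93 of 101 (92.1%) had Myl2, a share above the interval. Whether 4 of 8 reads as exclusion therefore depends on the cells compared, and it was not tested.

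The 5 cells differ in which transcript was ample. D23-10 had 8.38 cycles of Sln and 8.79 of Myl2, both far over the limit. E10.5-62 was also mixed, with 6.98 cycles of Sln and 6.0 of Myl2. D29-2 (3.70 Sln, 10.64 Myl2) and E10.5-68 (4.68 Sln, 13.43 Myl2) had ample Myl2 and little Sln, and Neo-atrial-3 was the reverse. No cell held both at the levels of the heart chambers.

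**Figure D3:**
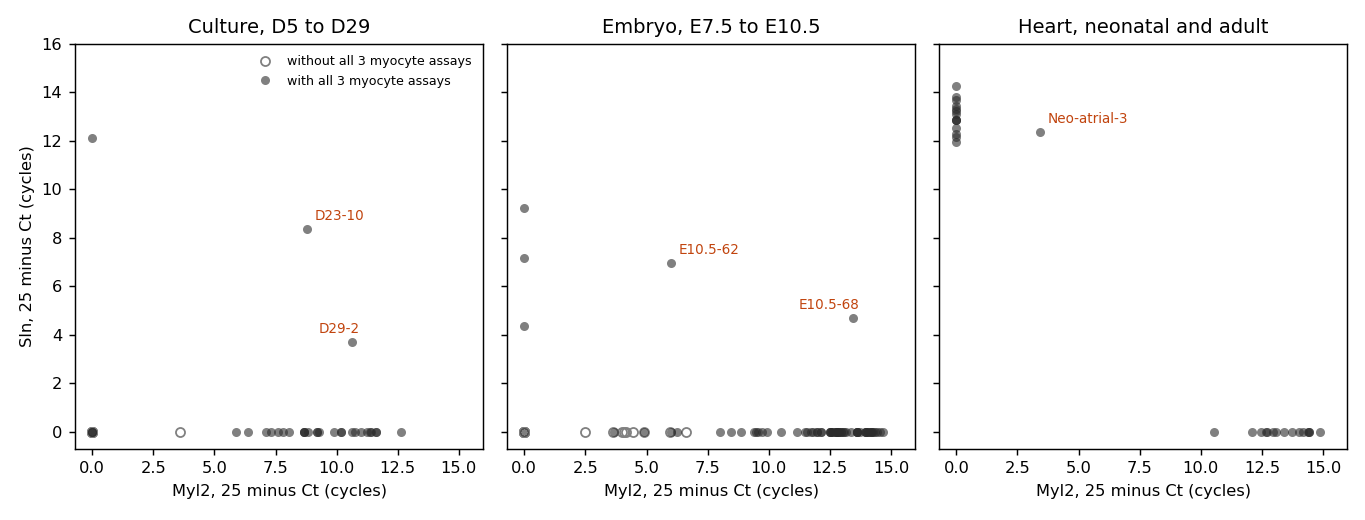
Sln against Myl2 in single cells, each axis in 25 minus Ct (cycles), for culture (D5 to D29), embryo (E7.5 to E10.5) and heart; filled points have Tnnt2-1, Actn2 and Nkx2.5-1 all detected, open points do not. Cells lie along the axes except for the 5 named ones, D23-10, D29-2, E10.5-62, E10.5-68 and Neo-atrial-3.

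Cells that detected Tnnt2-1 (cardiac troponin T), Actn2 (sarcomeric alpha-actinin) and Nkx2.5-1 (the cardiac homeobox factor Nkx2-5) together are called myocytes below. This class was set after the data were seen. All 23 Sln cells were among the 131 myocytes, and 109 of the 131 had Myl2, with a median of 12.14 and a highest value of 14.89 cycles. Of the 61 other cells, 13 had Myl2, all of it low, from 2.49 to 6.63 cycles with a median of 4.23. Those 13 included SMC-2 at 4.67 cycles and the fibroblast cells FB-1 and FB-2 at 4.98 and 4.23 cycles. Low Myl2 was therefore measured in cells lacking at least 1 of the 3 myocyte assays, and Sln was not.

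Among the reference types the CM cells were the ones with ample Myl2. Their values were 9.35, 9.71, 10.16, 10.64 and 10.92 cycles, a mean of 10.16 ± 0.65 (SD, n = 5), and 0.56 ± 1.54 (SD, n = 25) in the other types. The lowest CM value lies above the highest of the others. Across 42 assays 16 (38.1%) were at least 1 cycle higher in CM cells, Myl2 with them at 9.60 cycles. Sln was found in 1 CM cell, CM-1 at 3.70 cycles, which is D29-2. The other reference types had none in 25 cells, an interval of up to 13.7%.

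In culture ample Myl2 was found from the first myocyte on, and Sln only in late cells. Sln was undetected in all 24 cells of D5 to D8, an interval of up to 14.2%. For the 12 myocytes among them the interval reached 26.5%, which includes the share of 15% (3 of 20) in late cells. Myl2 was detected in 1, 1, 4 and 5 of 6 cells on D5, D6, D7 and D8. The single D5 cell had 3.59 cycles of Myl2 and was no myocyte. The single D6 cell, D6-6, had 10.63 cycles and was the only myocyte of that day, with 12.40 cycles of Tnnt2-1. On D7 the values were 0, 0, 7.30, 8.81, 10.19 and 11 cycles, and on D8 0, 5.88, 8.65, 9.19, 11.24 and 11.59.

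Mean Myl2 was 0.60 ± 1.47, 1.77 ± 4.34, 6.22 ± 4.98 and 7.76 ± 4.32 cycles (SD, n = 6 each) from D5 to D8. The steps were 1.17, 4.45 and 1.54 cycles, each smaller than the larger SD of its pair of days. They stand among many, since 45.2%, 35.7% and 28.6% of the 42 assays had a mean at least 1 cycle above that of the day before. The number of myocytes moves with these steps, at 0, 1, 5 and 6 of 6 cells, and its part was not tested. Within the myocytes themselves Myl2 averaged 7.46 ± 4.40 cycles (SD, n = 5) on D7, where the only D6 myocyte already had 10.63.

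Of the 12 myocytes of D6 to D8, 10 had Myl2 and 2 had neither gene. D7-2 lacked Myl2 and had 5.12 cycles of Myh7-2 and 10.02 of Hand1. D8-5 lacked Myl2, both Myh7 assays and Hand1, and with 7.33 cycles had the highest Tbx5 of the D8 cells. Its Tnnt2-1 of 11.06 cycles was inside the range of the other D8 cells, so these zeros stand beside ample muscle transcripts.

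Across the D5-D8 table the 11 cells with Myl2 were compared with the 13 without. Among 40 other assays, cells with Myl2 had 16 (40%) higher by at least 1 cycle and 9 (22.5%) lower by as much, with a median of 0.48 cycles. Centring on Actb turned this to 27 higher and 4 lower. All 11 remaining assays of the cardiomyocyte list were higher, with a median difference of 5.95 cycles. They include the alpha myosin heavy chain Myh6-1 (10.10 ± 3.6 against 2.13 ± 4.31 cycles, SD) and troponin I, Tnni3-2 (9.56 ± 1.66 against 1.92 ± 3.56). Lower in Myl2 cells were Hand1 (4.74 ± 4.03 against 9.70 ± 3.6), the receptor Flk-1 (1.24 ± 2.17 against 4.86 ± 3.22) and the pluripotency factor Pou5f1 (2.47 ± 2.88 against 5.39 ± 1.61). Day moves with this division, since 9 of the 11 Myl2 cells and 3 of the 13 others are from D7 or D8; its part was not tested. So does depth, with a median of 28 detected assays against 17.

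Late culture held cells with Myl2, with Sln, with both markers and with neither. On D23 all 10 cells had Myl2, with a lowest, median and highest value of 6.38, 8.66 and 9.88 cycles. On D29 it was found in 8 of 10 cells, from 7.11 to 12.65 cycles. Mean Myl2 was 8.43 ± 1.0 (SD, n = 10) on D23 and 8.57 ± 4.74 (SD, n = 10) on D29, with 2 cells at 0 on D29. The D29 median was 10.69 cycles, and the 8 cells with Myl2 averaged 10.71 ± 1.64 (SD), above the highest D23 value. All 20 cells were myocytes. The D23 mean lies 0.67 cycles above D8, less than the 1.44 cycles by which the positive control of the 2 tables differs. Cells D29-2 and D29-3 also stand, with the same values, among the reference cells beside the lower control. For those 2 cells the control gap cannot be read as an offset between tables.

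Sln was found in 1 of 10 cells on D23 and 2 of 10 on D29. The cell D29-10 had 12.13 cycles of Sln, within the neonatal atrial range of 11.94 to 13.31, and no Myl2. It is the only cell outside the hearts in that range. Its Tbx5 of 7.07 cycles was the highest of the 20 late cells. That value was just under the neonatal atrial range of 7.09 to 8.97 and inside the adult atrial range of 6.29 to 10.55. Hand1 and Myh7-2 were undetected in it, as they also were in D29-6, which had Myl2. Myh7-1 was present at 3.45 cycles, inside the neonatal atrial range of 0 to 4.40, where all adult atrial cells were at 0. Hcn4, the pacemaker channel, was at 4.47 cycles, above the neonatal atrial range. It was inside the adult atrial range of 0 to 9.29 and that of the other D29 cells. Of the 42 assays 25 lay within the range of the 5 neonatal atrial cells, 29 within that of the 10 adult atrial cells, and 36 within that of the other 9 D29 cells. D29-10 itself detected 22 assays. An assay undetected in it counts as inside wherever some cell of the set also lacks it, so these counts include shared non-detection. Muscle assays were among those below the neonatal range, with Nkx2.5-1 at 5.87 against 8.5 to 9.32 cycles and Actn2 at 6.80 against 8.93 to 9.74.

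The second D29 cell, D29-2, combined little Sln with Myl2 at 10.64, Myh7-2 at 9.70 and Hand1 at 7.31 cycles and had no Tbx5. D23-10 had Myh7-2 at 9.54, Hand1 at 6.09 and Tbx5 at 4.49 cycles beside both markers. So 2 of the 3 late Sln cells had the ventricular assays too. D29-7 had neither marker nor Myh7, with Tnnt2-1 at 10.66 and Hand1 at 5.97 cycles. Comparing the 3 Sln cells with the other 17, 5 of 40 assays (12.5%) were higher by at least 1 cycle and 3 (7.5%) lower, or 4 and 4 when median-centred. Myh7-1 (2.59 cycles), Hand2 (2.55), Hcn4 (1.46), Myh7-2 (1.23) and the smooth muscle gene Sm22A (1.16) were higher. With 3 cells on one side, single cells decide most of these. Without D29-10 Sm22A was at -0.97 and Hcn4 at 0.48 cycles. Myh7-2 was at -0.33 without D23-10 and at -0.41 without D29-2. Myh7-1 and Hand2 were at least 1 cycle higher whichever of the 3 was left out. The counts higher and lower were 11 and 2 without D23-10, 7 and 5 without D29-2, and 7 and 6 without D29-10.

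In the embryo ample Myl2 was first found at E8.5 and Sln at E10.5. Sln was undetected in the 18 cells of E7.5 to E9.5, an interval of up to 18.5%. The E10.5 share of 6.94% (5 of 72 cells) lies inside that interval, so these cells do not date the start of Sln. At E7.5 1 of 6 cells had Myl2 (4.14 cycles), at E8.5 5 of 6 and at E9.5 all 6. At E8.5 the values were 0, 2.49, 3.66, 7.99, 8.85 and 9.57 cycles, and at E9.5 8.45, 9.74, 10.52, 11.97, 12.63 and 12.74. Means were 0.69 ± 1.69, 5.42 ± 3.91 and 11.01 ± 1.73 cycles (SD, n = 6 each). The E9.5 step of 5.58 cycles exceeds the larger SD, as does the E8.5 step of 4.73. They stand among many, since 52.4% of assays were at least 1 cycle higher at E8.5 than at E7.5 and 54.8% at E9.5 than at E8.5.

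No E7.5 cell, 4 E8.5 cells and all 6 E9.5 cells were myocytes, and all 10 of these had Myl2. E8.5-3 was a myocyte with only 3.66 cycles of Myl2 and yet 10.07 of Myh7-2 and 11.34 of Tnnt2-1. The other 3 E8.5 myocytes had 10.05, 11.13 and 11.58 cycles of Myh7-2. On Myh7-1 the cell was the lowest of the 4, at 6.91 against 7.85, 9.07 and 9.13 cycles. Among E8.5 and E9.5 myocytes none lacked Myh7-2.

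At E10.5 Myl2 was bimodal. Of 72 cells 59 detected it (81.9%, interval 71.1% to 90.0%) and 5 detected Sln (6.94%, interval 2.29% to 15.5%). The Myl2 values left an empty stretch between 6.63 and 9.40 cycles. Above it were 48 cells from 9.40 to 14.69 cycles, all of them myocytes. Below it were 11 cells from 3.62 to 6.63 cycles, 4 myocytes and 7 others, and 13 cells without Myl2, 4 myocytes and 9 others. Mean Myl2 over the 72 cells was 9.42 ± 5.35 cycles (SD), 1.59 cycles under E9.5. Of the 42 assays, 57.1% were at least 1 cycle lower at E10.5 than at E9.5. For Myl2 that direction turns with the summary, because the median of 12.50 cycles is 1.26 cycles above the E9.5 median. In the neonatal ventricle mean Myl2 was 3.85 cycles above E10.5, where 23.8% of assays were at least 1 cycle higher. The medians were 0.58 cycles apart and the means over detecting cells 1.77. It was 7.48 cycles centred on Actb and 5.73 median-centred.

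The 5 Sln cells of E10.5 read 4.36 (E10.5-52), 4.68 (E10.5-68), 6.98 (E10.5-62), 7.16 (E10.5-48) and 9.22 (E10.5-65) cycles. Every one is below the lowest neonatal atrial value of 11.94. In all 5 the myocyte assays were detected, as in 51 of the 67 cells without Sln. Of the 5, 4 are among the 6 cells that recur in the E7.5-E10.5 table, so Sln was found in 4 of 6 recurring cells and in 1 of the 66 others (1.52%, interval 0.0384% to 8.16%). How those 6 were chosen is not given in the sources used here, and a share of Sln cells at E10.5 rests on them.

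Comparing the 5 Sln cells with the other 67, 12 of 40 assays (30%) were higher by at least 1 cycle and 9 (22.5%) lower, with a median of 0.37 cycles. The split was 22 and 7 when centred on Actb and 19 and 7 when median-centred. The cells on the other side that are no myocytes move with this: among cells that detect a Tnnt2 assay, 3 assays were lower. Myh6-1 (11.05 ± 2.48 against 7.71 ± 4.44 cycles, SD) and Tnni3-2 (11.34 ± 1.02 against 8.35 ± 4.42) were higher, and Myh7-2 (5.67 ± 5.65 against 8.34 ± 4.35) and Hand1 (1.66 ± 3.72 against 3.86 ± 4.37) were lower. Endothelial Cdh5 and Pecam1 were at 0 in all 5 Sln cells and detected in 12 of the other 67 each. All 5 Sln cells were myocytes, against 51 of those 67, and the shares among myocytes alone are not given here. Of the 4 assays of the endothelial list 3 were lower and 1, Flk-1, was higher. Flk-1 read 7.33 cycles in E10.5-62, 6.21 in E10.5-65 and 3.78 in E10.5-68.

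The 59 Myl2 cells and the 13 without Myl2 differed in muscle assays as a block. With Myl2, 19 of 40 other assays (47.5%) were higher by at least 1 cycle and 7 (17.5%) lower, with a median of 0.53 cycles. The split was 23 and 4 when centred on Actb and 18 and 12 when median-centred. All 11 remaining cardiomyocyte assays were higher, with a median of 5.38 cycles, led by Myh7-2 (9.47 ± 3.52 against 2.18 ± 3.27, SD). Fn1 (fibronectin) was 2.61 cycles lower, Pdgfra 2.31, Cdh5 2.18 and Pecam1 2.0. Of the 59 cells 52 were myocytes and of the 13 only 4, and the 2 sides had medians of 28 and 20 detected assays.

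Restricting the comparison to the 56 E10.5 myocytes left a narrower set of assays that went with Myl2. Splitting them at 8 cycles, inside the empty stretch and chosen after the data were seen, gave 8 cells with low or no Myl2 and 48 with high Myl2. Of 40 other assays, 5 (12.5%) were at least 1 cycle lower in the low-Myl2 cells and 3 (7.5%) at least 1 cycle higher, with a median of -0.05 cycles. Centred on Actb, 10 were higher and 6 lower, and median-centred 14 and 6, so which side has more assays turns with the scale.

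The lower assays were those of the ventricle first. Myh7-2 averaged 3.9 ± 3.70 cycles (SD, n = 8) in low-Myl2 and 10.86 ± 1.86 (SD, n = 48) in high-Myl2 myocytes. Myh7-1 averaged 1.77 ± 3.57 and 8.70 ± 1.13 cycles and was detected in 2 of 8 and 48 of 48. Hand1 was detected in 0 of 8 low-Myl2 cells and in 31 of 48 high-Myl2 cells, whose mean was 5.43 ± 4.31 cycles. Pou5f1 (2.29 cycles) and Fn1 (1.11 cycles) were the other 2 lower assays.

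Higher in low-Myl2 myocytes were both assays of the alpha myosin heavy chain, Myh6-1 (11.71 ± 2.03 against 9.78 ± 1.86 cycles, SD) and Myh6-2 (10.80 ± 1.90 against 9.20 ± 1.80). The third was Flk-1, at 3.03 ± 3.30 against 1.17 ± 2.40 cycles. The troponin assays that did not define the class differed by under 1 cycle: Tnnt2-2 averaged 12.01 against 12.23 cycles, Tnni3-1 10.31 against 9.55 and Tnni3-2 11.24 against 10.63. Both sides were chosen to detect Tnnt2-1, which averaged 12.33 and 12.50 cycles. Tbx5 differed by 0.53 cycles and was detected in 7 of 8 and 44 of 48. Sln, the other chamber marker, was found in 4 of the 8 low-Myl2 cells and 1 of the 48 others, with means of 3.46 ± 3.93 and 0.10 ± 0.68 cycles. Its difference of 3.37 cycles was 1.74 without the 6 recurring cells, 4 of which are on the low side. Without them Myh7-2 was still 5.66 cycles and Hand1 5.48 cycles lower on the low side.

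The 8 low-Myl2 myocytes were not alike. Cells E10.5-48 and E10.5-52 had Sln and no Myl2 or Myh7-2, with 6.30 and 7.15 cycles of Tbx5. By the other Myh7 assay, Myh7-1, E10.5-48 had 4.48 cycles and E10.5-52 had none. E10.5-62 had both markers and 5.85 cycles of Myh7-2. E10.5-1, E10.5-67 and E10.5-69 had Myl2 at 6.24, 4.90 and 6.0 cycles and no Sln, and E10.5-66 had neither. These 7 all had Myh6-1 between 11.70 and 13.12 cycles and Tbx5 between 6.30 and 8.32. The last, E10.5-65, stood apart. It had the highest Sln outside atria and late culture (9.22 cycles) with no Myl2, but Myh7-2 at 10.43 cycles, Myh6-1 at only 6.83 and no Tbx5, and it alone of the 8 detected Isl1, a factor of second heart field progenitors (Isl1-1 at 2.91 and Isl1-2 at 4.68 cycles).

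**Figure D4:**
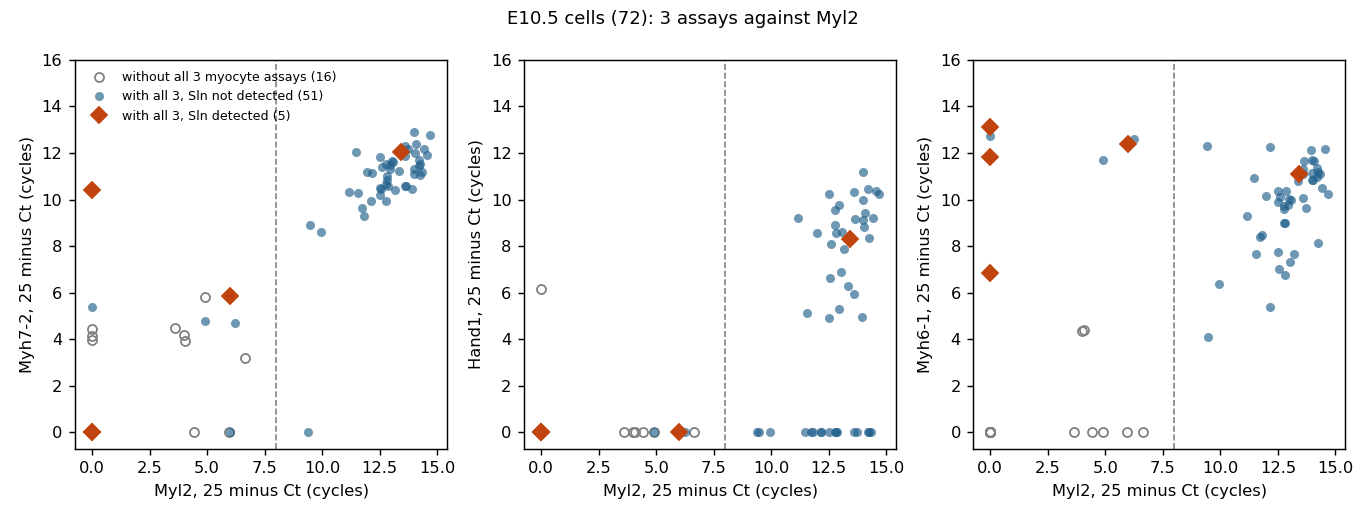
Myh7-2, Hand1 and Myh6-1 against Myl2 in the 72 E10.5 cells, all in 25 minus Ct (cycles); open circles lack a myocyte assay, blue points are myocytes without Sln, red diamonds the 5 Sln cells, and the dashed line marks 8 cycles. Myocytes right of the line have Myh7-2 in 47 of 48 cells and are the only myocytes with Hand1, while the Myh6-1 values of the 2 sides overlap.

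Ordered by mean, Sln stood at 13.21 cycles in adult and 12.52 in neonatal atrial cells, and next at 1.58 ± 3.88 on D29, 0.84 ± 2.65 on D23, 0.74 ± 1.66 in CM cells and 0.45 ± 1.73 at E10.5 (SD). The last 4 are close within their spread, and the step from neonatal atria to D29 of 10.94 cycles is far beyond it. For Myl2 the order was adult and neonatal ventricle, E9.5, CM, E10.5, D29, D23, D8, D7 and E8.5. In that order a neighbouring pair differed by more than its larger SD only from neonatal ventricle to E9.5 (2.26 cycles), and the next, from E8.5 at 5.42 to FB at 1.84 cycles, did not (3.58 against 3.91).

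The assays most like each gene were read from correlations across the cells of a table. Those cells differ in the number of detected assays, and the correlations are given as a description. At E10.5 Myl2 was most like Myh7-1 (Pearson r = 0.88, 72 cells), Myh7-2 (0.88), Actn2 (0.75), Nkx2.5-1 (0.74) and Tnnt2-1 (0.69), and least like Pecam1 (-0.51), Cdh5 (-0.46) and the intermediate filament gene Vim (-0.44). Among the 56 myocytes Myh7-2 (0.79), Myh7-1 (0.76) and Hand1 (0.51) led and Actn2 was at 0.37. By ranks (Spearman) Tnnt2-1 (0.65) and Actn2 (0.64) stood above Myh7-1 (0.61) and Hand1 (0.55). In the 48 high-Myl2 myocytes alone Tnnt2-1 was at 0.77, Myh7-1 at 0.71, Myh7-2 at 0.69, Actn2 at 0.63 and Hand1 at 0.43, so that order rests on the 8 low-Myl2 cells. In the D5-D8 table Myh7-2 (0.88), Myh7-1 (0.85), Nkx2.5-2 (0.84), Tnni3-2 (0.83) and Myh6-2 (0.81) were most like Myl2 over 24 cells, and Actb (-0.70), Pou5f1 (-0.62) and Vim (-0.59) least. In the E7.5-E10.5 table, 24 cells, Myh7-2 (0.79) and Myh7-1 (0.75) led again.

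In late culture and hearts that order did not hold. Over the 20 cells of the D23-D29 table Nkx2.5-1 (0.53) and Actn2 (0.47) were most like Myl2, Myh7-2 was at 0.33, and Sln was last at -0.45. By ranks Nkx2.5-1 was at 0.58, Actn2 at 0.50 and Myh7-2 at 0.10. Sln, detected in 3 of these cells, was at -0.15 by ranks, place 29 of 31 assays. Over the 15 ventricular cells Gata4-1 (0.80), Nkx2.5-2 (0.78), Nkx2.5-1 (0.77), Gata4-2 (0.75) and Tnnt2-1 (0.70) led, and no Myh7 assay was among them. For Sln the 15 atrial cells give the only table in which it was detected in more than 5 cells. There Myh6-1 (0.62), Tnni3-2 (0.55), Tnni3-1 (0.51), Actn2 (0.42) and Nkx2.5-2 (0.41) were most like it, and Gata4-1 (-0.46), Mef2C-2 (-0.42) and Vim (-0.36) least. When median-centred the last 3 were at -0.12, 0.10 and -0.21, and Nkx2.5-2 was at 0.71. The 15 cells of each chamber pool 5 neonatal and 10 adult cells, and the part of age in these correlations was not tested. Vim, for example, was at 0 in all adult atrial cells and between 4.90 and 13.80 cycles in the neonatal ones.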

How the data were processed

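Per the labels' protocols, sorted single cells were lysed, reverse transcribed, pre-amplified with the TaqMan assays and read on Fluidigm BioMark chips. The Ct values of 42 assays in 7 tables are those the authors deposited. The sources used here do not say how the Ct threshold was set or whether values were normalized or cells filtered. Expression was computed as 25 minus Ct, with undetected values as 0, so a weakly expressed and an absent transcript read alike. Sets follow the cell names, and assays were matched by name across tables (Calponin 1 and 2 read as Cnn1 and Cnn2). Means, SDs between cells, shares with exact 95% intervals (counting error only), differences of means and correlations were computed with Python 3.11.15, pandas 2.3.3 and SciPy 1.17.1. Differences were first run on simulated data with known answers. A difference of at least 1 cycle was counted.

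The members and lists were chosen with earlier results of these data known. Assays are named where they belong to the lists (cardiomyocyte, atrial, ventricular, endothelial and others), where they are among the 12 largest differences of at least 1 cycle each way or differ by at least 50 percentage points in detection, and as the 5 most and 3 least correlated. Assay values in single cells named after their markers were chosen after their values were seen. The alternatives were Ct limits of 23 and 24, centring each cell on Actb or its median detected assay, medians, detecting cells only, a cell filter and leaving out cells.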

Additional observations from a re-analysis of the deposited data

Results flagged for a closer look

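In sets of 4 to 10 cells, 8 cells stood apart from the rest of their set by Dixon's criterion at 95%, among 22 set and gene combinations with any spread. Chance alone flags about 1 in 20 groups, and any set in which 1 cell detects a gene is flagged by construction.

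For Sln these were CM-1 at 3.70 cycles, which is the same cell as D29-2, D23-10 at 8.38 cycles and D29-10 at 12.13 cycles. In the first 2 sets every other cell was at 0, and on D29 the next cell was at 3.70.

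For Myl2 they were D5-6 at 3.59, D6-6 at 10.63, E7.5-3 at 4.14, SMC-2 at 4.67 and Neo-atrial-3 at 3.42 cycles, each the only cell of its set with Myl2. D6-6 was the only myocyte among them with a level above 8 cycles.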

How the results depend on the processing

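The counts of cells with Sln (23), Myl2 (122) and both (5) were the same at Ct limits of 24 and 23, since no detected value of either gene was under 2.49 cycles. The cell filter, which left out 6 cells, gave 23, 121 and 5, and counting every copy gave 28, 127 and 7. Of the alternative values for differences between sets, 126 stayed within 1 SD, 7 moved further and 1 reversed, and the 60 that left out 1 cell stayed within 1 SD, though Sm22A and Myh7-2 in late Sln cells turned in sign. Reversed was the Myl2 step from E9.5 to E10.5, which was 1.26 cycles by medians. Centring on the median detected assay moved the chamber differences to 14.68 (Sln, adult), -14.75 (Myl2, adult) and 11.89 cycles (Sln, neonatal). Centring on Actb moved Myl2 to -14.49 cycles in neonatal chambers, Sln to 2.56 between adult and neonatal atria and Myl2 to 14.55 between CM and the other reference cells, which was 5.53 over detecting cells. Counts of assays moved by over 1.5 times as follows. At E10.5, 4 assays (Actb) or 12 (median) were lower with Myl2. In the D5-D8 table, 27 were higher and 4 lower with Myl2 after centring on Actb. With Sln at E10.5, 22 (Actb) or 19 (median) were higher, and 3 lower among cells detecting Tnnt2. With Sln in the D23-D29 table, 7 to 11 were higher and 2 to 6 lower when 1 of the 3 Sln cells was left out. In low-Myl2 myocytes 10 (Actb) or 14 (median) were higher, and 5 without the recurring cells. The cause was not tested. For the correlations, 191 alternative values stayed within 0.2 and 25 moved further.

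Set means on the centred scales were not run as means, only as differences. Precision is limited by 5 to 72 cells a set, by 1 sample per set, and by the detection limit. No test was made, and no paired analysis was possible because no animal or culture is named.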
